A study of Rattus norvegicus with 6 samples.

Results

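The genes described here encode the cytosolic ribosomal proteins of the rat, measured in pancreas. Members were the rows of the deposited gene table whose symbol is Rpl or Rps, a number, at most 1 of the letters a, x, y, l and p and at most 1 further digit, with a mean of at least 1 TPM over the 6 libraries. TPM is a transcript abundance divided by gene length and scaled so that each library has the same total. The selection also asks for symbols without the letters ps. Read letter by letter this drops every Rps gene and leaves 46 rows, so it was applied only to names ending in a ps suffix, which mark pseudogenes. Of 34001 genes in the table, 77 were members, 46 of the large and 31 of the small subunit. Another 12 rows carried a matching symbol but lay below the limit, and 5 of them were listed at 0 in every library. The member closest to the limit was Rpl8 with a mean of 1.01 TPM, and the closest row outside it was Rps29 with 0.55 TPM. The 77 rows carry 73 distinct symbols, because Rpl7a, Rpl21, Rps19l2 and Rps27a each stand for a pair of rows.

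Ribosomes translate mRNA into protein. The small subunit holds the mRNA and reads its codons, and the large subunit joins the amino acids and passes the chain into its exit tunnel. The proteins are made in step with ribosomal RNA, and their mRNAs are among the most abundant in dividing and secreting cells. In mammals most of them begin with a run of pyrimidines, called a TOP motif, through which mTOR signalling and the protein Larp1 control their translation. The acinar cells of the pancreas are packed with ribosomes that make digestive enzymes.

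Tissue came from Sprague-Dawley rats, an outbred laboratory strain, with 2 animals in each of 3 groups and 1 RNA library per animal. In the TP+hucMSC-Exs group (TP stands for traumatic pancreatitis) the pancreas was struck and squeezed by an impactor set to 3 cm2 and 10 kg, and exosomes from human umbilical cord mesenchymal stem cells, small vesicles that those cells release, were given at 10 μg per 100 g through a tail vein. The TP group had the same injury and 1 ml of saline. The Control group was a sham operation, in which the pancreas was exposed and turned with swabs, with 1 ml of saline. All glands were taken 24 h after the procedure. No age, sex or genetic change is stated in the labels, and no group analysed here had exosomes without injury. The comparisons asked how injury differs from the sham operation and whether exosomes alter the injured gland.

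The libraries differ in ways that touch every result below. TPM keep no read numbers, so the depth of each library is unknown. All 10 acinar markers were above 0 in every library. The listed digestive enzymes took 66.0% and 60.2% of TPM in TP+hucMSC-Exs, 79.1% and 21.2% in TP, and 85.4% and 81.7% in Control. TP replicate 2 stands apart: it has 13629 genes at 1 TPM or more, against 5533 to 10537 in the other 5 libraries. Its summed adipocyte markers reached 6576 TPM, against 19.1 to 46.5 in the others, with 8 of 8 markers highest there. Macrophage markers summed to 472 and 865 TPM in TP+hucMSC-Exs, 73.7 and 5476 in TP, and 25.1 and 169 in Control, with 10 of 10 highest in TP replicate 2. Fibroblast markers summed to 4431 TPM in that library and to 31.2 to 152 in the other 5. Lymphocyte markers ranged over 0.11 to 61.5 TPM and were highest in Control replicate 2, where 8 of 10 had their maximum, while 8 of 10 were at 0 in Control replicate 1. Duct markers summed to 51.6 and 63.6 TPM in TP+hucMSC-Exs, 4.05 and 10.8 in TP, and 6.02 and 7.33 in Control, so that both treated libraries lay above the other 4. Neutrophil markers summed to 56.9 and 103 TPM in TP+hucMSC-Exs, 3.02 and 467 in TP, and 0.47 and 2.95 in Control, with 6 of 6 highest in TP replicate 2. The part of these differences in the values below was not tested. In bulk tissue, fewer cells of a type and less RNA per cell cannot be told apart.

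The start regions of some abundant members are shown first, because the pyrimidine run at the start is the sequence feature for which this family is known. Promoter entries from RefSeq (assembly GRCr8) were found for 59 of the 77 rows, which are 58 distinct genes. Each line gives 40 bases before the annotated start and 20 from it on, read 5′ to 3′ along the gene's strand, and capitals mark the unbroken run of C and T that begins at the annotated start. The windows lie as follows: Rpl37 at chr2:55942905-55942964 on the + strand, Rpl35 at chr3:43165902-43165961 on the - strand, Rps18 at chr20:4933705-4933764 on the + strand, Rps15 at chr7:10068096-10068155 on the - strand, Rps27 at chr2:177964587-177964646 on the - strand, Rps27l at chr8:76443618-76443677 on the + strand and Rpl41 at chr7:1563478-1563537 on the - strand. Rpl41, Rpl37 and Rpl35 had the highest levels of the large subunit, Rps18 and Rps15 were among the 3 highest of the small one, and Rps27 and Rps27l are a gene and its paralog.
Rpl37: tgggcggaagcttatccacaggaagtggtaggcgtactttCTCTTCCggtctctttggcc
Rpl35: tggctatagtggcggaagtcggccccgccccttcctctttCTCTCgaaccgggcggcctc
Rps18: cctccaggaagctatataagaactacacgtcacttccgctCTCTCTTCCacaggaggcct
Rps15: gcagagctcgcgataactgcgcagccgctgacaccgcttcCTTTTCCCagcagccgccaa
Rps27: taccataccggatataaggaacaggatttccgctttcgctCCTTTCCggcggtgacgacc
Rps27l: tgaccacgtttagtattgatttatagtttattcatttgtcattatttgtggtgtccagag
Rpl41: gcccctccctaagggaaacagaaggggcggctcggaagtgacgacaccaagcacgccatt
The run is 7 bases long in Rpl37 and Rps27, 5 in Rpl35, 9 in Rps18 and 8 in Rps15, and it is absent at the annotated start of Rpl41 and Rps27l. The lines shown are not a full list of the abundant members. Of the leading small subunit genes left out, Rps2 has a run of 1 base, and Rps12 and Rps28 have none. A C at the start followed by at least 4 bases of C or T was present in 18 of the 58 genes (31%), against 722 of all 27457 promoters in the table (2.63%). In the 250 bases before the start, searched on both strands, CCGGAAG, the core of sites for ETS factors, was found in 15 of 58 (25.9%) against 7.74% of all promoters. The motif GGGCGG, the GC box bound by Sp1, was found in 31 of 58 (53.4%) against 32.4%. A match is a description of the letters only, and an annotated start can lie some bases from the one used in this tissue. The median log2 fold change of the 18 genes with the run differed little from that of the other 40: 1.10 against 1.12 with TP set over Control, -0.27 against -0.31 with TP+hucMSC-Exs set over TP, and 0.81 in both sets with TP+hucMSC-Exs set over Control. These medians are descriptions without a test.

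Ribosomal protein mRNAs were among the most abundant in every library once the digestive enzymes are passed over. The median member stood at or near the 99th percentile of the 11477 genes with a mean of at least 1 TPM: 99.0 in both TP+hucMSC-Exs libraries, 99.0 and 98.9 in TP, and 99.0 in both Control libraries. Between 65 and 69 of the 77 members lay among the top 5% of genes. TPM are divided by the listed gene length, such as 347 bases for Rpl37 and 5151 for Rpl7. Levels therefore compare between genes only as far as that length suits the transcript measured. Some proteins also have part of their TPM in copies, as given below. The highest large subunit member was Rpl41, a very short peptide, with 3136 and 3507 TPM in TP+hucMSC-Exs, 2519 and 5992 in TP, and 2015 and 2280.0 in Control. Next came Rpl37, a zinc-binding protein of the large subunit, with 1634 and 1872 TPM in TP+hucMSC-Exs, 1246 and 3675 in TP, and 886 and 1123 in Control. In both genes TP replicate 2 was highest and the Control libraries were lowest, Control overlapped with neither injured group, and both TP+hucMSC-Exs libraries lay between the TP libraries. Rpl35, Rpl32 and Rpl26 of the large subunit followed, with means of 1159, 978 and 956 TPM over the 6 libraries.

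In the small subunit Rps18, a protein of the subunit's head, led with 1371 and 1625 TPM in TP+hucMSC-Exs, 969 and 3077 in TP, and 726 and 984 in Control. For Rps18 the TP and Control groups overlapped, since TP replicate 1 lay just below Control replicate 2. Rps2, which lines the channel where mRNA enters, had 957 and 1188 TPM in TP+hucMSC-Exs, 544 and 3671 in TP, and 412 and 595 in Control. The TP replicate 2 value of Rps2 was the most extreme among these leading genes, and TP replicate 1 lay between the Control libraries. Rps15, Rps12, Rps28 and the Rps19l2 row ENSRNOG00000048199 followed with means of 1206, 1061, 1009 and 987 TPM. The Rps19l2 rows are described in the table as S19-like2, and no row with the plain symbol Rps19 is a member.

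The share of all TPM held by the 77 genes was higher in both injured groups than in Control, and this direction turns round when the digestive enzymes are set aside. The family held 4.24% and 4.94% of TPM in TP+hucMSC-Exs, 3.21% and 9.84% in TP, and 2.34% and 2.97% in Control. Means were 4.59% ± 0.493 in TP+hucMSC-Exs, 6.52% ± 4.69 in TP and 2.65% ± 0.444 in Control (SD, n = 2 each). Both Control values lay below all 4 values of injured glands, and both TP+hucMSC-Exs values lay between the TP values. The mean share in TP was 2.46 times that in Control, that in TP+hucMSC-Exs was 0.704 times that in TP and 1.73 times that in Control. Both comparisons with TP rest on TP replicate 2: without it the difference between TP and Control was 0.551 percentage points in place of 3.87, and that between TP+hucMSC-Exs and TP was 1.39 in place of -1.93. An exact two-sided permutation test gave p = 0.33 for TP against Control and for TP+hucMSC-Exs against Control, the smallest that 2 against 2 libraries allow, and p = 1 for TP+hucMSC-Exs against TP. Over the 12 tests of shares and subunit ratios the Benjamini-Hochberg values of these permutation tests were 0.667 and 1.

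As a share of the TPM outside the digestive enzymes, the family held 12.5% and 12.4% in TP+hucMSC-Exs, 15.4% and 12.5% in TP, and 16.0% and 16.2% in Control. On this scale both comparisons with Control turn round. Both Control libraries were highest, TP replicate 1 was near them, and TP replicate 2 was level with the TP+hucMSC-Exs libraries. The mean of TP+hucMSC-Exs stayed below that of TP, at 12.5% against 13.9%. The difference in mean share was -2.19 percentage points for TP against Control and -3.66 for TP+hucMSC-Exs against Control, where as deposited it was 3.87 and 1.94. The spread within TP+hucMSC-Exs (SD 0.0313 percentage points) and within Control (SD 0.146) was small beside the gap between them, but 2 libraries a group cannot give an exact p below 0.33.

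**Figure D1:**
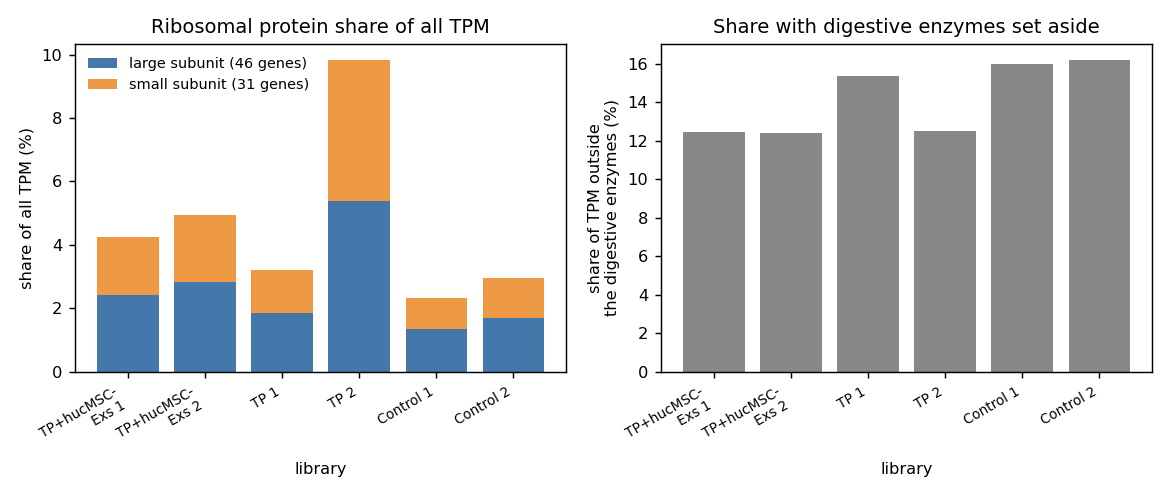
Share of TPM held by the ribosomal protein genes in each library (percent), with bars for TP+hucMSC-Exs, TP and Control replicates from left to right. Left, share of all TPM with the large (blue) and small (orange) subunit stacked, from 2.34% in Control replicate 1 to 9.84% in TP replicate 2. Right, share of the TPM outside the digestive enzymes, where Control is highest at 16.0% and 16.2% and the mean of TP+hucMSC-Exs is again below that of TP.

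Both subunits ordered the 6 libraries in the same way. Large subunit genes held 2.44% and 2.84% of TPM in TP+hucMSC-Exs, 1.86% and 5.37% in TP, and 1.36% and 1.69% in Control. Small subunit genes held 1.81% and 2.10% in TP+hucMSC-Exs, 1.34% and 4.47% in TP, and 0.983% and 1.28% in Control. The ratio of large to small subunit TPM, which no scaling of a library changes, was 1.35 in both TP+hucMSC-Exs libraries, 1.39 and 1.20 in TP, and 1.38 and 1.31 in Control. TP replicate 2 alone stood below the range of 1.31 to 1.39 held by the other 5 libraries. The exact two-sided permutation p for the log2 of this ratio was 1 in all 3 comparisons.

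The members also kept closer to each other within a library than genes in general did. Relative to its own mean in Control on the log2(TPM + 0.5) scale, the median member stood at 0.71 and 0.91 in TP+hucMSC-Exs and at 0.30 and 1.91 in TP, while the median of all 11477 genes stood at 0.97 and 1.22 in TP+hucMSC-Exs and at 0.00 and 3.00 in TP. Members were thus above the median gene in TP replicate 1 and below it in the other 3 injured libraries. The interquartile range over the 77 members was 0.19 and 0.26 in TP+hucMSC-Exs and 0.16 and 0.37 in TP, against 0.72 and 0.85, and 0.42 and 1.28, over all genes in the same libraries. Low genes spread more than abundant ones on this scale, so the comparison describes the family and does not set it apart from other abundant genes.

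**Figure D2:**
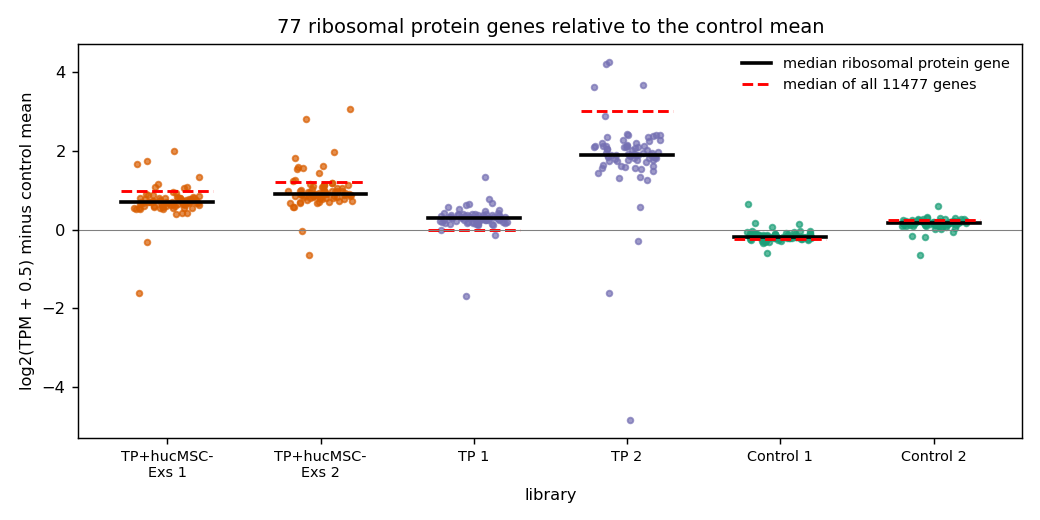
Each point is 1 of 77 ribosomal protein genes; the vertical axis is log2(TPM + 0.5) minus the mean of the Control libraries, and libraries run from TP+hucMSC-Exs through TP to Control. Black bars (median member) and red dashed bars (median of all 11477 genes) show the family below the median gene in TP replicate 2 (1.91 against 3.00) and above it in TP replicate 1 (0.30 against 0.00); with the digestive enzymes set aside the median member is lower in TP and in TP+hucMSC-Exs than in Control.

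For TP against Control, most ribosomal protein genes had more TPM in TP as deposited, but none passed the test, and the direction turned round under other scalings. With limma on log2(TPM + 0.5), 0 of 77 members passed an adjusted p of 0.05, beside 0.0523% of all genes tested that passed as higher and 0% as lower. The lowest adjusted p among members was 0.555, and 0 of 77 were under 0.05 before adjustment, where 3.96% of all genes were under it as higher and 0.105% as lower. The median log2 fold change was 1.11 over the members and 1.50 over all genes, with a median standard error of 1.06 over the members, and 74 of 77 estimates were above 0. Both TP libraries lay above both Control libraries for 56 members (72.7%), beside 23.1% of all genes, and below them for 1 member, the Rpl7a row ENSRNOG00000049097, beside 1.09%. The direction depends on scaling: the median member was at -0.19 with the digestive enzymes set aside, at -0.63 under median-of-ratios scaling and at -0.19 under quantile normalization, where the median of all genes was at 0.44, 0.02 and 0.01. In each of these scalings and as deposited, the median member lay below the median gene, but with no filter on low genes the gap was 0.00. Without the digestive enzymes only 5 members lay above in both TP libraries, beside 9.7% of all genes, and 36 (46.8%) lay below, beside 8.01%.

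The TP result rests on which TP library is kept. With TP replicate 1 left out, TP is the single library TP replicate 2, assumed to vary like the other groups, and 73 members passed as higher and 1 as lower, beside 91.5% of all genes higher and 1.78% lower. With TP replicate 2 left out, 0 members passed, and the median member was at 0.30 while the median gene was at 0.00. The members of smallest p in the full fit were Rps4y2, Rps2 and Rpl13, with log2 fold changes of 2.53 ± 1.42, 1.51 ± 0.97 and 2.11 ± 1.43 (SE) and adjusted p of 0.555 each in limma. Rps4y2, a copy of the small subunit gene S4, had 5.34 and 64.3 TPM in TP, against 2.79 and 2.97 in Control. Rpl13, whose protein L13 belongs to the large subunit, had 4.0 and 82.9 TPM in TP, against 3.92 and 4.06 in Control. In both genes the TP mean is carried by TP replicate 2: without it the log2 fold change was 0.79 for Rps4y2, 0.0034 for Rpl13 and, likewise, 0.14 for Rps2. Summed over all rows of protein L13, the value for TP against Control was 0.99 in place of 2.11.

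For TP+hucMSC-Exs against TP, no ribosomal protein gene passed the test, and the family's share lay inside the range set by the TP libraries. In limma 0 of 77 members passed, beside 0.0523% of all genes higher and 0.0174% lower, and every adjusted p among members was 1. None of the 77 was under 0.05 before adjustment, beside 0.758% of all genes higher and 0.566% lower. The median log2 fold change was -0.31 over members and -0.38 over all genes, and 70 of 77 estimates were below 0. The groups did not overlap for 1 member only, Rpl39l, which lay above TP in both TP+hucMSC-Exs libraries, beside 5.09% of all genes, and 0 members lay below, beside 1.62%. Under other scalings the median member was at -0.17 without the digestive enzymes, at -0.04 under median-of-ratios and at 0.07 under quantile normalization, which turns its direction. Without the digestive enzymes 35 members (45.5%) lay below TP in both TP+hucMSC-Exs libraries, beside 9.84% of all genes, and 3 lay above, beside 9.21%. Without TP replicate 1, 70 members passed as lower and 2 as higher, beside 79.5% of all genes lower and 3.62% higher. Without TP replicate 2 no member passed and the median member was at 0.51, opposite in sign to the value from all libraries, with the median gene at 1.10.

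The members of smallest p for TP+hucMSC-Exs against TP were Rpl39, Rpl39l and Rpl13. Rpl39, a small protein in the wall of the exit tunnel, had 18.1 and 40.7 TPM in TP+hucMSC-Exs, against 35.6 and 0 in TP, which gave 2.70 ± 1.42 (SE) and a limma adjusted p of 1. That value turns to -0.36 when all rows of protein L39 are summed. Rpl39l, its paralog known from male germ cells in the mouse, had 2.17 and 6.52 TPM in TP+hucMSC-Exs, against 0.80 and 0.75 in TP, for a log2 fold change of 1.76 ± 1.48 (SE). Its groups did not overlap, at levels close to the limit of 1 TPM. Rpl13 had 7.63 and 8.22 TPM in TP+hucMSC-Exs, against 4.0 and 82.9 in TP, for -1.20 ± 1.43 (SE), and both values lay between those of TP. With all rows of L13 summed it was -0.27.

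For TP+hucMSC-Exs against Control, 74 of 77 members had more TPM in both treated libraries than in both Control libraries, as did 86.9% of all genes, and 1 member had less, beside 1.63%. Summed duct, neutrophil, macrophage, fibroblast, endothelial and skeletal muscle markers were likewise higher in both treated libraries than in both Control libraries. The acinar sum was lower in both, and the adipocyte, lymphocyte and islet sums overlapped. Single acinar markers differed in direction. Prss1, Cpa1, Cpb1, Cela2a and Pnlip were lower in both treated libraries, and Ctrb1 and Bhlha15 overlapped. Ptf1a, Rbpjl and Gp2 were higher in both. Ptf1a had 32.6 and 34.5 TPM in TP+hucMSC-Exs, against 13.4 and 16.3 in Control. The part of these markers in the values here was not tested. In the limma fit over the 6 libraries 0 of 77 passed, beside 0.209% of all genes higher and 0% lower. The lowest adjusted p among members was 0.800, and 0 were under 0.05 before adjustment, beside 2.85% of all genes higher and 0.0958% lower. The median log2 fold change was 0.81 over members and 1.09 over all genes. A fit on these groups alone, without the spread of the TP libraries, called 70 members, all higher, beside 52.3% of all genes, and without TP replicate 1 or TP replicate 2 it was 68 and 70, beside 52.1% and 51.9%. These counts follow the scale as well: the median member was at -0.36 without the digestive enzymes, at -0.66 under median-of-ratios and at -0.12 under quantile normalization, and the median gene at 0.29, 0.00 and -0.01. Without the digestive enzymes 63 members (81.8%) lay below Control in both libraries, beside 16.6% of all genes, and 5 lay above, beside 43.4%.

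The members of smallest p for TP+hucMSC-Exs against Control were Rps4y2, Rpl39l and Rpl30, with log2 fold changes of 2.40 ± 1.42, 2.38 ± 1.48 and 1.85 ± 1.19 (SE) and limma adjusted p of 0.800 each. Rps4y2 had 13.1 and 23 TPM in TP+hucMSC-Exs, against 2.79 and 2.97 in Control. Rpl39l had 2.17 and 6.52 TPM in TP+hucMSC-Exs, against 0.28 and 0.39 in Control. In both genes the groups did not overlap. The member that lay below was the Rpl7a row ENSRNOG00000049097, with 111 and 87.7 TPM in TP+hucMSC-Exs, 42.3 and 112 in TP, and 155 and 121 in Control. The other Rpl7a row, ENSRNOG00000047737, had 721 and 926 TPM in TP+hucMSC-Exs, 541 and 1651 in TP, and 271 and 428 in Control. The rows of this protein thus differ in which group is high, and which of them a read belongs to is uncertain for copies this alike.

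The make-up of the family, each gene's part of the summed TPM of the 77, is not touched by what the digestive enzymes take. The 10 members with the highest mean TPM over the 6 libraries held 30.7% and 30.4% of it in TP+hucMSC-Exs, 31.2% and 30.1% in TP, and 32.3% and 31.04% in Control. Rpl37 kept almost the same part everywhere, with 3.85% and 3.79% in TP+hucMSC-Exs, 3.89% and 3.73% in TP, and 3.79% and 3.78% in Control. Rpl41 held 7.39% and 7.10% in TP+hucMSC-Exs, 7.86% and 6.09% in TP, and 8.61% and 7.68% in Control, lowest in TP replicate 2. Rps2 was the reverse, with 2.26% and 2.40% in TP+hucMSC-Exs, 1.70% and 3.73% in TP, and 1.76% and 2.00% in Control, highest in TP replicate 2. With each library scaled to the family's own total, 15 members lay above and 7 below Control in both TP libraries, beside 12.7% and 5.37% of all genes. On that scale 11 lay above and 11 below TP in both TP+hucMSC-Exs libraries, beside 10.7% and 4.8%, and 30 lay above and 20 below Control, beside 65.3% and 7.45%. Across the 77 members the Pearson correlation between libraries, on the log2 scale used for limma, was 0.90 to 0.99. Every pair that includes TP replicate 2 lay between 0.90 and 0.94. By rank (Spearman) the pairs with TP replicate 2 were at 0.95 to 0.97 and the other pairs at 0.97 to 0.99, so the gap depends on the scale. Those correlations share the same genes and are given as a description.

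**Figure D3:**
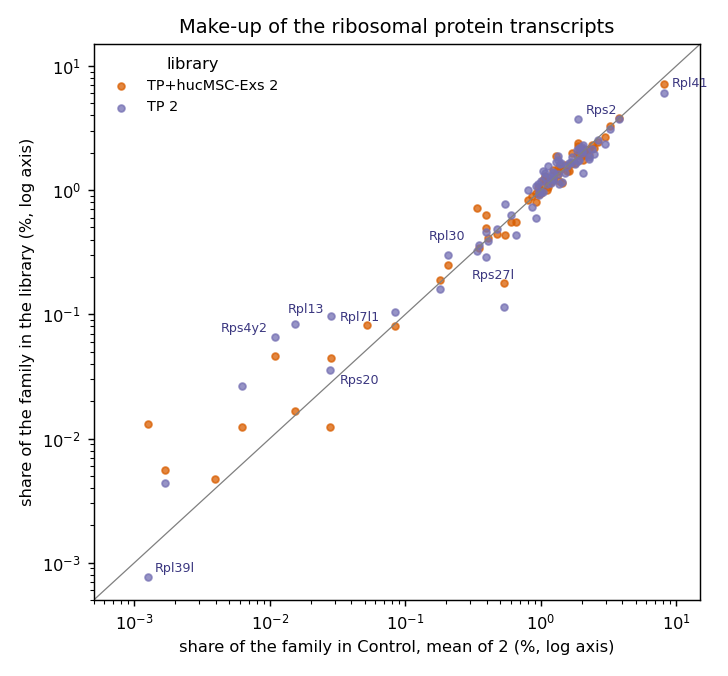
Each point is 1 member; both axes, logarithmic, give its percent of the summed ribosomal protein TPM, in Control (horizontal, mean of 2) and in TP+hucMSC-Exs replicate 2 (orange) or TP replicate 2 (purple). Names stand beside the TP replicate 2 points. Most members lie along the line of equal share, Rps2 (3.73% in TP replicate 2) lies above it, and Rpl41 (6.09%) below; members at 0 TPM in a library, such as Rpl39 in TP replicate 2, have no point there.

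Many low members have copies under other names, so that a row with the family symbol holds only a part of the protein's TPM. Besides the members, 137 rows are described as 40S or 60S ribosomal proteins, 39 of them with a mean of at least 1 TPM. Together these 137 rows held 1.54% and 1.76% of TPM in TP+hucMSC-Exs, 1.22% and 3.54% in TP, and 0.892% and 1.10% in Control. Of 67 proteins with a member row, 51 had less than 1% of their TPM in such other rows, 8 had over 50% there and 4 had over 95%. Those 4 are Rpl39, Rpl13, Rps20 and Rpl8, with 98.2%, 98.4%, 99.1% and 99.9% of the TPM of their protein in other rows. Rps29, which misses the limit, is a further case: a row described as S29, LOC108352650, had 2823 and 3149 TPM in TP+hucMSC-Exs, 2431 and 6273 in TP, and 1776 and 2194 in Control. Another 24 rows with a mean of at least 1 TPM had no such description but a ribosomal protein as best protein match. They are left out of the counts above and of all sums per protein. For example, a row best matched to an L36-like protein had a mean of 190 TPM, beside 588 for Rpl36.

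Rps20, a protein of the small subunit's head, is an example. The row with this symbol had 8.53 and 6.11 TPM in TP+hucMSC-Exs, 5.66 and 35.1 in TP, and 10.1 and 3.83 in Control, and the groups overlapped. All rows of protein S20 summed to 1270.5 and 1463 TPM in TP+hucMSC-Exs, 896 and 2699 in TP, and 653 and 797 in Control, which is the order seen in the family. Likewise L8, a protein close to the peptide-joining centre, summed to 699 and 814 TPM in TP+hucMSC-Exs, 549.6 and 1563 in TP, and 367 and 469 in Control, although its row with the symbol Rpl8 had 0 and 2.32, 1.69 and 0, and 1.09 and 0.95 TPM. For both proteins the row with the symbol and the sum over rows differ in level and in the order of the libraries.

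For Rpl30 the split between copies, rather than the level of the row, sets the treated libraries apart from the others. Its protein, L30 of the large subunit, represses the splicing of its own transcript in yeast. The Rpl30 row had 299.98 and 352 TPM in TP+hucMSC-Exs, 113 and 317 in TP, and 78.9 and 102 in Control. The row LOC100362027, described as L30-like, had 36.7 and 36.0 TPM in TP+hucMSC-Exs, 231 and 625 in TP, and 153 and 194 in Control. The copy was lower in both treated libraries than in the other 4, whereas the Rpl30 row of TP+hucMSC-Exs overlapped with TP, since TP replicate 2 lay between the treated libraries. The Rpl30 row held 89% and 90.6% of the TPM of rows described as L30 in TP+hucMSC-Exs, 32.8% and 33.7% in TP, and 34.1% and 34.4% in Control. The 4 libraries without exosomes lay within 32.8% to 34.4%, with no overlap, and this held for TP replicate 2 too. A row best matched to an L30-like protein, but not so described, is not counted here. It had 1.89 and 5.12 TPM in TP+hucMSC-Exs, 1.22 and 59.0 in TP, and 0 in both Control libraries. Summed over the rows, L30 had 337 and 388 TPM in TP+hucMSC-Exs, 343 and 942 in TP, and 232 and 296 in Control. The fold change against Control was 1.85 for the Rpl30 row and 0.47 ± 1.10 (log2, SE) for the sum, with limma adjusted p of 0.800 and 0.812.

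Among the 16 proteins with a member row and over 1% of TPM in other rows, the part in the member rows spanned 57.8 percentage points over the 6 libraries for L30, 25 for S6, 20.5 for L12 and under 14 for the others. L12 was the other protein whose TP+hucMSC-Exs libraries lay outside the range of the other 4, with 62.3% and 60.3% in TP+hucMSC-Exs, 79.0% and 80.8% in TP, and 64.1% and 64.4% in Control, a much smaller gap. The S6 rows, which encode the target of the S6 kinases, gave 40.7% and 34.1% in TP+hucMSC-Exs, 37.3% and 59.1% in TP, and 38.5% and 44.5% in Control for Rps6, highest in TP replicate 2. How the authors' program shares reads between copies is not given in the sources used here, and its part in these values was not tested.

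**Figure D4:**
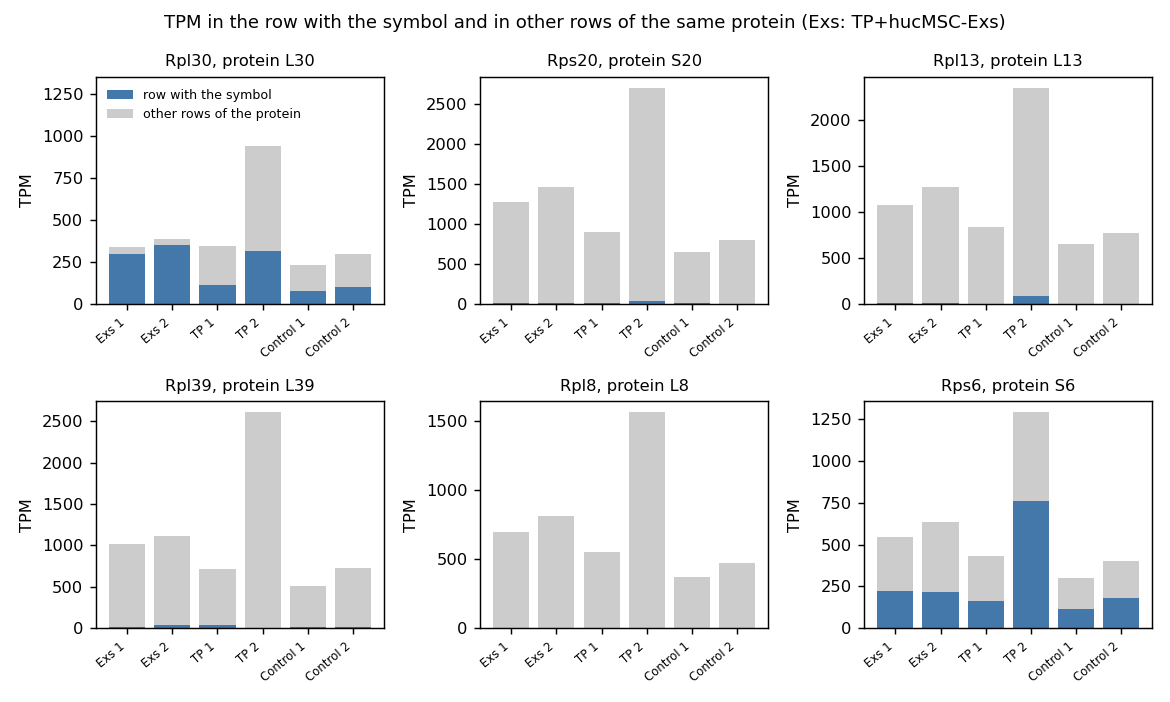
Summed TPM of 6 proteins in each library (vertical axes, TPM, each starting at 0), split into the member row with the symbol (blue) and the other rows described as that protein (grey); Exs stands for TP+hucMSC-Exs. For L30 the blue part is 89% and 90.6% in TP+hucMSC-Exs and 32.8% to 34.4% elsewhere, whereas S20, L13, L39 and L8 are almost wholly grey in every library.

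Of 3 paralogs set beside the gene they resemble, Rps27l, Rps4y2 and Rpl10l, Rps27l reached the largest part of its partner. Other paralogs were not ranked. Among them, Rpl7l1 had a mean of 26.7 TPM beside 81.2 for Rpl7, whose listed length is 5151 bases. Rps27l, which p53 induces in human and mouse cells, had 218 and 312 TPM in TP+hucMSC-Exs, 156 and 283 in TP, and 85.7 and 126 in Control. Its partner Rps27 had 885 and 1061 TPM in TP+hucMSC-Exs, 605 and 2180.5 in TP, and 425 and 649.9 in Control. Rps27l stood at 24.6% and 29.4% of Rps27 in TP+hucMSC-Exs, 25.7% and 13% in TP, and 20.2% and 19.4% in Control. The ratio was thus higher in both treated libraries and in TP replicate 1 than in Control, and lowest in TP replicate 2. Rps27l had a log2 fold change of 1.32 ± 1.19 (SE) for TP+hucMSC-Exs against Control, with a limma adjusted p of 0.800.

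Rps4y2 stood at 1.87% and 2.95% of Rps4x in TP+hucMSC-Exs, 1.04% and 4.80% in TP, and 0.806% and 0.654% in Control, so that all 4 injured libraries lay above both Control libraries. Rpl10l, known from male germ cells in the mouse, had at most 4.34 TPM, in TP replicate 2, and at least 0.33 TPM, in Control replicate 2. Rpl22l1, the paralog of L22, had 37.7 and 39.95 TPM in TP+hucMSC-Exs, 27.4 and 102 in TP, and 20.2 and 23.8 in Control. Rpl7l1, a relative of L7, had 18.6 and 22.1 TPM in TP+hucMSC-Exs, 8.04 and 96.0 in TP, and 4.51 and 10.96 in Control. For Rpl22l1 both injured groups lay above Control without overlap, whereas for Rpl7l1 TP replicate 1 lay between the Control libraries. The second Rps27a row, ENSRNOG00000004426, had 4.03 and 6.11 TPM in TP+hucMSC-Exs, 2.18 and 25.8 in TP, and 1.41 and 1.89 in Control.

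Lists of other genes for ribosome making and translation were read from the same limma fit. In the 8 lists that follow, 0 members passed the threshold in any comparison, and 0 were under 0.05 before adjustment. The 7 tested ribosomal proteins whose symbols the selection does not match, such as Rplp1 and Rplp0 of the stalk that recruits elongation factors, had median log2 fold changes of 1.11 with TP set over Control, -0.33 with TP+hucMSC-Exs set over TP and 0.78 with TP+hucMSC-Exs set over Control. Those are close to the medians of the 77 members, 1.11, -0.31 and 0.81. Rplp1 had 2073 and 2343 TPM in TP+hucMSC-Exs, 1789 and 4276 in TP, and 1286 and 1588 in Control. Rplp0 had 1113 and 1363 TPM in TP+hucMSC-Exs, 815 and 2601 in TP, and 620.3 and 742 in Control. For both stalk genes all 4 injured libraries lay above both Control libraries.

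The 33 ribosome biogenesis genes, which build and export the subunits, had medians of 1.51, -0.29 and 1.15 in the same order of comparisons, beside 1.50, -0.38 and 1.09 over all genes. Npm1, a nucleolar chaperone, had 99.8 and 132 TPM in TP+hucMSC-Exs, 40.5 and 331 in TP, and 24.2 and 43.5 in Control, and Nhp2, a core protein of the H/ACA particles that modify ribosomal RNA, had 56.4 and 72.1 in TP+hucMSC-Exs, 32.6 and 247 in TP, and 24.2 and 32.4 in Control. The 11 RNA polymerase I genes, which transcribe ribosomal RNA, had medians of 1.50, -0.13 and 1.13. Both treated libraries lay above both Control libraries for all 33 biogenesis and all 11 polymerase genes, beside 86.9% of all genes. With the TP libraries the same held for 6 and 1 of them, beside 23.1% of all genes.

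The 35 initiation factors had medians of 1.35, -0.20 and 1.23, and the 10 elongation and termination factors 1.45, -0.26 and 1.08. Eef1a1, the factor that brings aminoacyl-tRNA to the ribosome and itself a TOP mRNA, had 1965 and 2406 TPM in TP+hucMSC-Exs, 1477 and 4427 in TP, and 808 and 1146 in Control. The 15 other TOP mRNAs had medians of 1.41, -0.23 and 1.28. Tpt1, a TOP mRNA for a translationally controlled protein, had 1966 and 2148 TPM in TP+hucMSC-Exs, 1833 and 2247 in TP, and 1179 and 1513 in Control, with the TP libraries close to each other. The 15 genes that control TOP mRNAs, such as the mTOR pathway and Eif4ebp1, the translation repressor, had medians of 1.23, -0.36 and 0.87. Eif4ebp1 had 132 and 151 TPM in TP+hucMSC-Exs, 51.6 and 261 in TP, and 57.2 and 54.6 in Control. The 72 mitochondrial ribosomal proteins, which make up the separate ribosome of mitochondria, had medians of 1.52, -0.40 and 1.11. Their median for TP against Control, like that of the biogenesis genes, was thus close to the 1.50 of the median gene, while that of the cytosolic family lay at -0.39 relative to it. That gap was 0.00 with no filter on low genes and 0.30, with the family above the median gene, without TP replicate 2. This difference between lists is a description and was not tested.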

How the data were processed

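Gene-level TPM of 6 pancreas libraries were analysed as the authors deposited them, 1 column per library. For the aligner and quantifier, names were not given in the sources used here. Builds named by the submitters' processing notes are GRCm38 and mm10, while most rows carry rat identifiers. Per the labels' protocols, a SMARTer kit for mRNA turned column-purified RNA into libraries. The authors' group means were not used, and 0 per-library columns belonged to no sample. Groups came from the sample titles. The labels name no batch.

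Genes with a mean of at least 1 TPM (11477) were transformed to log2(TPM + 0.5), which understates changes of low genes, and fitted with limma 3.58.1 in R 4.3.3 (variance trend, empirical Bayes) over the 6 libraries, with Benjamini-Hochberg adjustment over all genes and a threshold of 0.05. The limma p-values rest on a spread between these animals that is pooled over genes of like abundance. The prior degrees of freedom of the main fit were infinite, so a gene's own spread does not enter. The TP libraries are part of that spread in every comparison. For TP+hucMSC-Exs against Control the median standard error of members was 1.06, and 0.215 with those groups alone. Shares were compared by exact permutation in Python 3.11.15 with scipy 1.17.1. The fit was tested on simulated data. Rows of 1 protein were joined by their deposited descriptions, and promoters came from RefSeq tables by gene ID or symbol. Other scalings, filters, pseudocounts, member sets, a replicate block and left-out libraries were tried.

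The members and gene lists were chosen with earlier results of these data known. Levels were to be given for the 6 highest and 3 lowest members of each subunit, paralog symbols and the 3 members that departed most from the median member in each direction and comparison; fold changes for the 3 of smallest p where none passed; and, per list, for the 2 highest genes. Not all of these are printed, and 1 is not reported here. The fold change of Rps27l and the rows Rps27, LOC100362027, LOC108352650 and others compared for shared proteins were added after their values were seen.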

Additional observations from a re-analysis of the deposited data

How the results depend on the processing

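Of the values for shares, subunit ratios and numbers of members called under other settings, 164 kept their direction and, where tested, their side of the threshold, or stayed within 1.5 times as a number called, 14 reversed and 5 moved; of those for named genes 137 kept both, 4 reversed and 15 passed the threshold. Keeping both does not mean keeping size: without TP replicate 2, the log2 fold change for TP against Control was 0.0034 for Rpl13, 0.14 for Rps2 and 0.79 for Rps4y2, in place of 2.11, 1.51 and 2.53. Rescaling TPM without the digestive enzymes reversed the share difference for TP against Control to -2.19 percentage points (large subunit -1.37, small subunit -0.82) and for TP+hucMSC-Exs against Control to -3.66 (large -2.10, small -1.56). Leaving out each library in turn, the share difference ran from 0.551 to 7.19 percentage points for TP against Control (lowest without TP replicate 2) and from 1.59 to 2.29 for TP+hucMSC-Exs against Control, while TP+hucMSC-Exs against TP ran from -5.25 to 1.39 percentage points (large -2.74 to 0.77, small -2.51 to 0.61), positive without TP replicate 2. The log2 of the large to small ratio ran from -0.164 to 0.0447 for TP against Control, -0.0440 to 0.164 for TP+hucMSC-Exs against TP and -0.0346 to 0.0360 for TP+hucMSC-Exs against Control, where it was -0.000517 without TP+hucMSC-Exs replicate 2 and, with the ribosomal proteins the selection does not match added, -0.0201. Members called ran from 0 to 74 for TP against Control, 0 to 72 for TP+hucMSC-Exs against TP (each without TP replicate 1) and 0 to 70 for TP+hucMSC-Exs against Control, where a fit on those groups alone gave 70. The cause of these moves was not tested. For TP against Control the median standard error of members was 0.28 without TP replicate 1 and 0.26 without TP replicate 2, in place of 1.06. Named genes reversed as follows: Rps2 for TP against Control was at -0.23 under median-of-ratios scaling, and for TP+hucMSC-Exs against TP Rpl39 ran from -0.38 without TP replicate 2 to 5.79 without TP replicate 1 and was at -0.36 with the rows of its protein summed, an alternative chosen after seeing the data, and Rpl13 ran from -3.31 without TP replicate 1 to 0.90 without TP replicate 2. The groups share replicate numbers that no label ties to a litter or day. With the replicate number as a block 0 members were called in each comparison; the deviations of same-numbered libraries correlated at 0.135, 0.0804 and 0.279 over the genes tested in the 3 pairs of groups. Depth is unknown, so no counting error could be given, and changes near the median standard error of 1.06 could not be called.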
